A study of Homo sapiens with 11 samples.

Results

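The arrestin family of MDA-MB-231 cells was described here through 7 genes: the alpha-arrestins ARRDC1, ARRDC2, ARRDC3, ARRDC4 and TXNIP and the beta-arrestins ARRB1 and ARRB2. All 7 were found among the 23167 gene identifiers of the RNA-seq count tables. The set was selected on the RNA-seq difference that ARRDC3 showed between mH2A1.1 KD and WT cells in these same libraries, and the other 6 genes were added by relationship. The KD values of the members are therefore a description, and where a member passed the calling rule of a fit across all genes, that is not independent evidence.

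Beta-arrestins bind G-protein-coupled receptors that have been phosphorylated by receptor kinases, uncouple them from their G proteins and bring them to clathrin for internalization. Alpha-arrestins share the arrestin fold and carry PPxY motifs that recruit HECT-type ubiquitin ligases of the NEDD4 family to membrane proteins, which are then sorted into endosomes and lysosomes. ARRDC3 is known in breast cancer as a suppressor that acts on integrin beta 4, and TXNIP binds thioredoxin and restrains glucose uptake.

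MDA-MB-231 is an established human triple-negative breast cancer (TNBC) cell line. The RNA-seq data are 2 mH2A1.1 KD libraries, of cells transfected with siRNA against the macroH2A1.1 isoform at 11 nM with INTERFERin and collected on day 3, and 2 WT libraries, of cells that received the reagent without siRNA. No non-targeting siRNA was included among these libraries, so the presence of an siRNA and the loss of mH2A1.1 cannot be told apart, and no source used here says which of the study's siRNAs these libraries received. Peaks of mH2A1.1 and of total mH2A1 came from ChIP-seq of WT cells, with 1 library per antibody and no replicate. The paper does not say whether the cells for ChIP-seq received the reagent. Nothing in the sources used here says that the replicates were separate cultures, so the spread between them may be technical.

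Promoters are shown for the members whose start carried an mH2A1.1 peak of 1 bin (ARRDC3 and ARRDC4) and for the other 2 that passed the calling rule in one of the fits reported with the comparison (TXNIP and ARRDC1). Each sequence is the 250 bases before a RefSeq start in GRCh38.p14, read 5′ to 3′ on the strand of the gene. They lie at chr5:91383318-91383567 on the minus strand for ARRDC3, at chr15:97960453-97960702 on the plus strand for ARRDC4, at chr1:145996580-145996829 on the minus strand for TXNIP and at chr9:137605436-137605685 on the plus strand for ARRDC1. Capitals mark matches to 3 motifs sought on both strands: the E-box CACGTG, the paired E-box-like element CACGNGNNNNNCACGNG and the CCAAT box, whose matches on the opposite strand read ATTGG.
ARRDC3: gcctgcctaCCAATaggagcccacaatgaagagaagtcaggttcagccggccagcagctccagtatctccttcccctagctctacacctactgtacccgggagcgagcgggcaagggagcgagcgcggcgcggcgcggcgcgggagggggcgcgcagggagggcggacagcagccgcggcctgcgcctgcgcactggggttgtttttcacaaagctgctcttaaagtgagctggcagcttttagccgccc
ARRDC4: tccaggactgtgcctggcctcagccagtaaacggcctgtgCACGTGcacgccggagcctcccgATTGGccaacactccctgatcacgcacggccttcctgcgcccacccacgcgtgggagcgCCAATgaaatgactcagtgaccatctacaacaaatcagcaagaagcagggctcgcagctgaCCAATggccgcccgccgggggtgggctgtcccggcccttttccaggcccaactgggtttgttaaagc
TXNIP: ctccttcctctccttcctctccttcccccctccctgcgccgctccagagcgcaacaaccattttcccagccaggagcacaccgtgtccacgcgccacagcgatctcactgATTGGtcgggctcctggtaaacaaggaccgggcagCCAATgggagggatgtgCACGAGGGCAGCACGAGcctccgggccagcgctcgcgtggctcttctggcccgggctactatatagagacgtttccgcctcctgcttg
ARRDC1: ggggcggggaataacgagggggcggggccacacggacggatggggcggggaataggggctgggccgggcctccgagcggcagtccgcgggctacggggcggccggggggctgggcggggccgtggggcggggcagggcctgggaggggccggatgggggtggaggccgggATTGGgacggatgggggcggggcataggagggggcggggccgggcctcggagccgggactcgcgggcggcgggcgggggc
TXNIP held the paired element, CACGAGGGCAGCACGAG, beginning 88 bases before its start, a motif found in 16 of 27305 RefSeq promoter windows of this length (0.0586%). ARRDC4 held an E-box beginning 210 bases before its start, which 6.49% of windows contain, and 3 CCAAT boxes at 187, 128 and 67 bases. CCAAT occurred in 33.0% of windows and was also found in ARRDC3 (241 bases before the start), TXNIP (140 and 105), ARRDC1 (80), ARRB2 (145) and the second RefSeq start of ARRDC2 (93). These matches describe letters in a window and do not show that a factor was bound. The window of ARRDC1 had a GC content of 82%, that of ARRDC3 65.6%, that of TXNIP 63.6% and that of ARRDC4 62.8%, against a median of 58% over all windows. ARRDC3 and TXNIP each have a second RefSeq start, whose window is not printed and held no match to these motifs. Those windows had a GC content of 76% for ARRDC3 and 40.4% for TXNIP. Windows were given for 6 of the 7 members, all but ARRB1.

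MACROH2A1 (ENSG00000113648, chr5:135334381-135399914, minus strand), the gene that encodes both isoforms of macroH2A1, was counted at 385 and 394 CPM (counts scaled to a common library total, with TMM factors) in WT and at 274 and 300.1 CPM in KD. Both KD libraries lay below both WT libraries, with a log2 fold change of -0.44 (SE 0.173, n = 2 per group, not called). A count over the gene does not separate the targeted isoform from mH2A1.2. The cells carried the markers of the line, with 22006 counts of VIM, 12608 of CD44 and 6259 of EGFR in WT replicate 1, whereas ESR1 and PGR were at 0 in all 4 libraries. Among the 10 identity markers, those of luminal epithelium other than ESR1 and PGR ranged from 22 counts of CDH1 to 4715 of KRT8 in WT replicate 1, with ERBB2 at 760.

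The libraries held 9794674 and 7856892 counts in WT and 5584962 and 2309549 in KD. KD replicate 2 stood apart: chromosome 21 held 30 counts and chromosomes 22 and X held 0, and its deviation from WT followed the GC content of the exons. Sorted into 5 equal groups by GC, the genes tested had a median log2 difference from the WT mean that ran from -0.79 in the lowest group (31.0 to 40.4% GC) to 0.74 in the highest (56.9 to 73.8%) in KD replicate 2, and from -0.25 to 0.19 in KD replicate 1. No member lies on chromosomes 21, 22 or X, whose genes were left out of the fit, but the exons of the members span 38.8% (ARRDC3) to 63.2% GC (ARRDC1). Fold changes are therefore given also after each library's trends over exon GC and length were removed as offsets, and with each KD library alone.

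In WT cells the family was dominated by TXNIP and ARRDC3. As FPKM, counted reads scaled by exon length and by library total, TXNIP stood at 57.5 ± 0.640 (SD, n = 2), above 96.6% of the 15695 genes detected, and ARRDC3 at 28.7 ± 2.92, above 91.0%. The other 5 members lay between 4.25 ± 0.681 for ARRDC1 and 1.99 ± 0.329 for ARRDC4, with ARRB1 at 3.68 ± 0.133, ARRDC2 at 3.05 ± 0.301 and ARRB2 at 2.93 ± 0.117. These 5 were close to the middle of the detected genes, which had between 39.4 and 52.1% of genes below them. ARRDC2 and ARRB2 exchanged places between the 2 WT libraries, so their order was not resolved. ARRDC1 was above ARRB1 in each WT library, but the ranges met at 3.77, and the ranges of the other neighbours in the order did not overlap. Scaled by the length of the gene with its introns, ARRB1, whose gene spans 91584 bp, dropped to the last place at 0.397, so its rank depends on the choice of length.

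**Figure D1:**
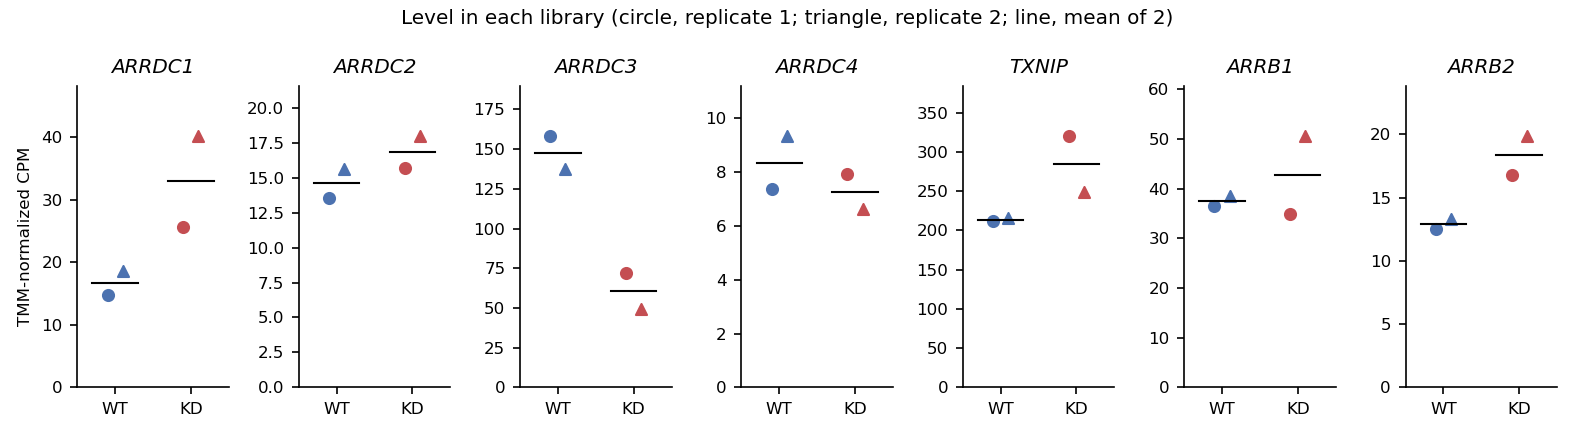
Level of each member in each library, in TMM-normalized CPM on axes that start at 0 and differ between panels (blue, WT; red, KD; circle, replicate 1; triangle, replicate 2; line, mean of 2). ARRDC3 sits at 158 and 137 CPM in WT and at 71.8 and 49.6 in KD, whereas ARRDC1, ARRDC2, TXNIP and ARRB2 have both KD points above both WT points.

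The members did not move together in mH2A1.1 KD cells. ARRDC3 was lower in both KD libraries, ARRDC1, ARRDC2, TXNIP and ARRB2 were higher in both, and ARRDC4 and ARRB1 overlapped between the groups. Over all 10963 genes tested, 32.4% had both KD libraries below both WT libraries and 32.5% had them above, so 1 and 4 of 7 members with separated groups is read against those shares. In bulk RNA, fewer cells that express a gene and less RNA per cell cannot be told apart.

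ARRDC3 (ENSG00000113369, chr5:91368631-91383317, minus strand), the adaptor that directs integrin beta 4 to degradation, had 1503 and 1044 counts in WT and 380 and 105 in KD. These are 158 and 137 CPM in WT and 71.8 and 49.6 CPM in KD. The groups were well separated, and the KD mean of 60.7 ± 15.7 CPM was 41.1% of the WT mean of 148 ± 14.7 (SD, n = 2 each). The log2 fold change was -1.26 (SE 0.229) and became -0.71 (SE 0.116) after the GC and length offsets. ARRDC3 belongs to the genes of lowest exon GC (38.8%), and it lay below the median of that group in each KD library: -1.04 against -0.25 in KD replicate 1 and -1.57 against -0.79 in KD replicate 2. With KD replicate 2 left out, the fold change was -1.04 (SE 0.124), and -0.76 (SE 0.0992) with the offsets as well. ARRDC3 was lower in KD under every one of the 20 alternatives tried, between -1.58 and -0.65.

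TXNIP (ENSG00000265972, chr1:145992435-145996579, minus strand), the thioredoxin-interacting member, had 2015 and 1642 counts in WT and 1694 and 526 in KD. The levels were 212 and 216 CPM in WT and 320.0 and 249 CPM in KD. Both KD libraries were higher, at a mean of 284 ± 50.5 CPM against 214 ± 2.79. The log2 fold change was 0.41 (SE 0.195) and was 0.73 (SE 0.114) with the offsets. Its exons have a GC content of 43.0%, and genes of that GC group had a median of -0.22. In KD replicate 1 it stood at 0.58 where its GC group had a median of -0.08, and in KD replicate 2 at 0.22 against -0.41. The value was 0.58 without KD replicate 2 and 0.21 without KD replicate 1, so the size without offsets depended on the library. With the offsets it stayed between 0.69 and 0.77.

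ARRDC1 (ENSG00000197070, chr9:137605685-137615360, plus strand), which recruits TSG101 to the plasma membrane for the budding of small vesicles, had 140 and 141 counts in WT and 136 and 85 in KD. It was at 14.7 and 18.5 CPM in WT and at 25.7 and 40.2 CPM in KD, with means of 16.6 ± 2.70 and 32.9 ± 10.2. The groups did not overlap, and the log2 fold change was 0.95 (SE 0.278). Its exons have the highest GC content of the family (63.2%), and with the offsets the value was 0.56 (SE 0.160). It lay above the median of the highest GC group in both KD libraries, at 0.63 against 0.19 and at 1.27 against 0.74.

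The other 4 members differed less. ARRB2 (ENSG00000141480, chr17:4710596-4721499, plus strand), a beta-arrestin, was at 12.5 and 13.3 CPM in WT and at 16.8 and 19.8 CPM in KD. Its groups were separated, with a log2 fold change of 0.49 (SE 0.224) that was 0.21 (SE 0.163) with the offsets. ARRB1 (ENSG00000137486, chr11:75260122-75351705, minus strand), the other beta-arrestin, was at 36.5 and 38.5 CPM in WT and at 34.95 and 50.6 CPM in KD. Only KD replicate 2 was above WT, and the fold change was 0.16 (SE 0.233), or -0.10 without that library.

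ARRDC2 (ENSG00000105643, chr19:18001132-18014102, plus strand), an adaptor that like ARRDC3 binds NEDD4-family ligases, was at 13.6 and 15.6 CPM in WT and at 15.7 and 18.0 CPM in KD. The closest pair of libraries nearly touched, and the log2 fold change was 0.19 (SE 0.227), or -0.13 (SE 0.174) with the offsets. ARRDC4 (ENSG00000140450, chr15:97960703-97973833, plus strand), the relative closest to TXNIP in its control by glucose, was at 7.36 and 9.34 CPM in WT and at 7.935 and 6.62 CPM in KD. These groups overlapped, and the 14 counts of ARRDC4 in KD replicate 2 were the fewest of any member. Its log2 fold change was -0.16 (SE 0.281), and 0.09 (SE 0.251) with the offsets. For ARRDC2, ARRDC4 and ARRB1 the sign changed with the offsets, and both edgeR values lay within 1 SE of 0.

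**Figure D2:**
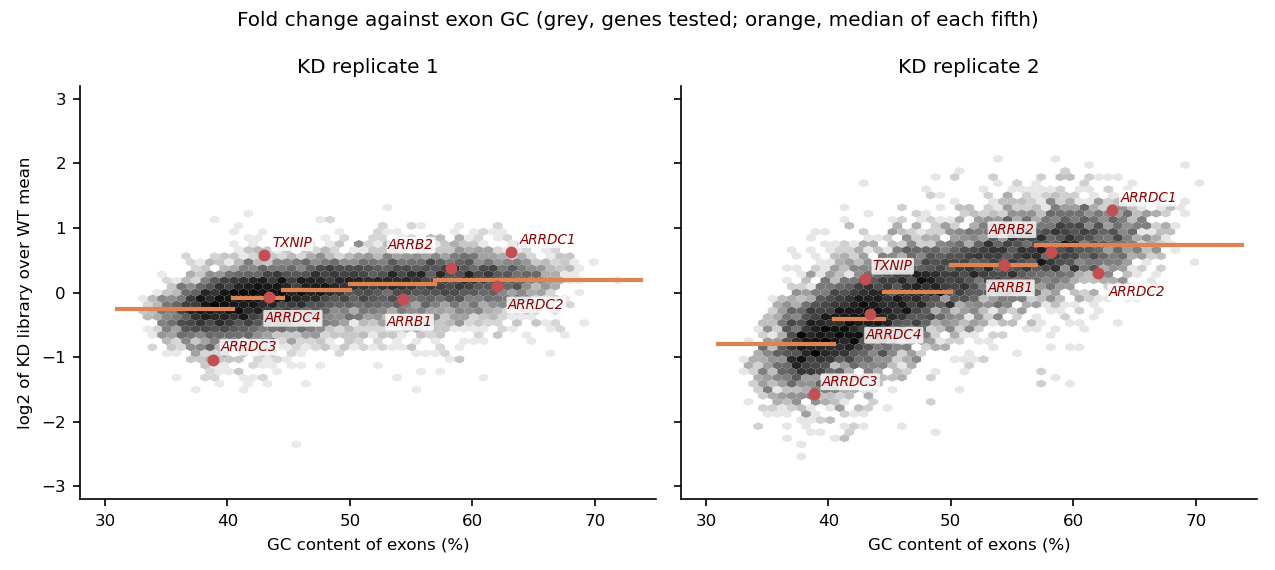
Log2 of each KD library over the WT mean (y) against the GC content of the exons in percent (x), with the genes tested in grey, the medians of 5 equal GC groups as orange lines and the members in red. ARRDC3 lies below and TXNIP and ARRDC1 lie above the median of their GC group in both KD libraries, while the medians run from -0.79 to 0.74 in KD replicate 2.

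A gene was called when its adjusted p was under 0.1 and its fold change over 1.5. Under this rule edgeR called 0 of 10963 genes, or 0%, in either direction, and therefore no member, although 2540 genes had an unadjusted p under 0.05. DESeq2 called 445 genes lower (5.73%) and 429 higher (5.52%) of the 7765 that it gave an adjusted p. Among the members, ARRDC3 was called lower and ARRDC1 higher by DESeq2, and ARRDC2, ARRDC4 and ARRB2 received no adjusted p. With the GC and length offsets, edgeR called 151 genes lower (1.38%) and 186 higher (1.7%), among them ARRDC3 lower and TXNIP higher. Because ARRDC3 was the reason for the choice of the family, nothing is read from these shares. ARRDC3 was not called by edgeR when either WT library was left out, where its log2 fold changes were -1.17 and -1.37.

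**Figure D3:**
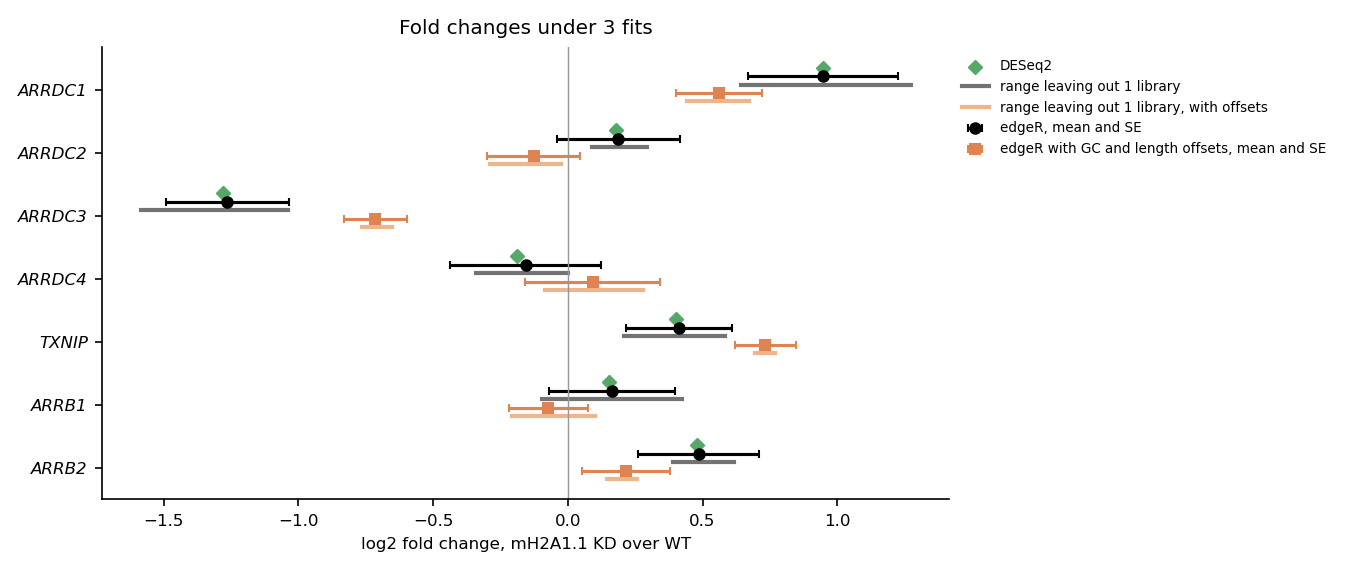
Log2 fold change of each member, mH2A1.1 KD over WT, from edgeR (black, mean and SE), edgeR with GC and length offsets (orange, mean and SE) and DESeq2 (green), with bars for the range when 1 library is left out. ARRDC3 stays left of 0 in all of them and is closer to 0 with the offsets (-0.71) than without (-1.26), whereas TXNIP is farther from 0 with the offsets (0.73 against 0.41).

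The genes whose pattern over the 4 libraries was most like that of ARRDC3 were sought among 8756 genes with a mean of at least 10 CPM, by the Euclidean distance between log2 CPM deviations from each gene's mean. The 5 nearest were NADK2 (0.0231), GOLM2 (0.0655), RAP2A (0.0717), PHF10 (0.0765) and TMEM33 (0.0811). The distance used the same 4 libraries as the fold change, so similar fold changes follow from the selection and are not a separate result. The log2 fold changes of these 5 genes ran from -1.20 for PHF10 to -1.31 for RAP2A. Their exons also had a low GC content, between 36.3% and 41.5%. With the offsets the fold changes ran from -0.60 for TMEM33 to -0.83 for NADK2 and GOLM2, next to -0.71 for ARRDC3. No other member was among them, and 4 libraries are few for ranking patterns.

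mH2A1.1 peaks lay at the start of 6 of the 7 members and total mH2A1 peaks at that of 3. The windows were 500 bp on each side of the gene start, and over 23061 genes with a position 37.8% had an mH2A1.1 peak and 21.2% an mH2A1 peak there. Among the 10943 of these genes tested in the RNA-seq comparison the shares were 46.9 and 18.4%. The 30687 mH2A1.1 and 24222 mH2A1 peaks are multiples of bins of 3000 bp without height or score, so a peak says where enrichment was called and not how strong it was.

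The members differed in how far the mH2A1.1 peak reached. At ARRDC3 it was a single bin, chr5:91383001-91386000, which covers the promoter printed above and the first 317 bp of the gene, 2.16% of its length. ARRDC4 likewise had 1 bin, chr15:97959001-97962000, over its promoter and 9.885% of the gene. Neither peak overlapped a peak of total mH2A1, whose nearest peaks were 33317 bp from the start of ARRDC3 and 28298 bp from that of ARRDC4. Downstream of ARRDC3, outside the gene, lay another mH2A1.1 bin, chr5:91362001-91365000, and an mH2A1.1 peak of 42000 bp, chr5:91311001-91353000. The wider one overlapped a peak of total mH2A1. Of the 8716 genes with an mH2A1.1 peak at the start, 2177 had a peak of 1 bin.

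TXNIP, ARRDC1, ARRDC2 and ARRB2 lay whole inside wide mH2A1.1 peaks. The peak at TXNIP was 33000 bp (chr1:145977001-146010000) and held no other counted gene start. That at ARRDC1 was 54000 bp (chr9:137574001-137628000) with 4 other gene starts, that at ARRB2 102000 bp (chr17:4704001-4806000) with 9, and that at ARRDC2 132000 bp (chr19:17973001-18105000) with 2. All 4 of these peaks overlapped mH2A1 peaks. Wide peaks that span several genes are a property of the neighbourhood as much as of a member.

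ARRB1 was the exception. The start of this long gene had no mH2A1.1 peak within the window, and the nearest, chr11:75318001-75348000, began 3705 bp downstream inside the gene. Its start lay instead in a peak of total mH2A1 of 72000 bp (chr11:75327001-75399000). Total mH2A1 was also found at the starts of ARRDC1, in 6000 bp, and of ARRB2, in 81000 bp, whereas the peaks nearest to ARRDC2 and TXNIP ended 1132 and began 4579 bp from the start. ARRDC2, ARRDC3, ARRDC4 and TXNIP thus had a peak of mH2A1.1 and none of total mH2A1 at the start, as did 32.9% of the tested genes. The antibody against total mH2A1 is directed at both isoforms, and the peaks of each antibody were called separately. The paper reports that this antibody has a lower affinity for tagged mH2A1.1 than the mH2A1.1 antibody has.

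**Figure D4:**
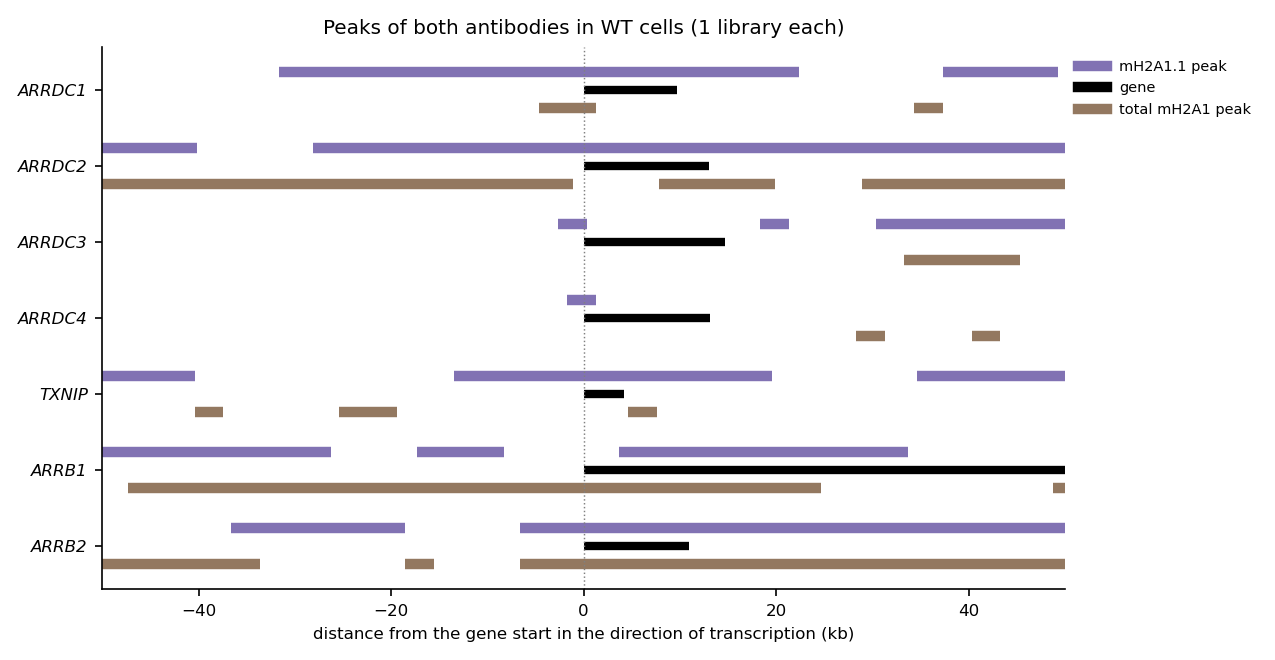
Peaks of mH2A1.1 (purple) and total mH2A1 (brown) from 1 WT library each, drawn by distance from the gene start in kb in the direction of transcription, with the gene in black (ARRB1 continues past the right edge). The mH2A1.1 peak at the start of ARRDC3 and of ARRDC4 is 3000 bp wide, and ARRDC3 has further mH2A1.1 peaks downstream, outside the gene. TXNIP, ARRDC1, ARRDC2 and ARRB2 lie inside peaks of 33000 to 132000 bp.

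Genes annotated across a member could share its reads. ARRDC3-AS1 begins on the opposite strand inside ARRDC3, at chr5:91380349. Its counts were 5 and 2 in WT and 5 and 0 in KD, far fewer than those of ARRDC3. ARRDC1-AS1 overlaps the last bases of ARRDC1 and was at 13.1 and 13.5 CPM in WT and at 12.3 and 13.7 CPM in KD, where the groups overlapped. MIR326, within ARRB1, was at 0 in all libraries. The kit marks strand, but whether the counting used it was not settled from the sources, so reads in these stretches cannot be told apart by strand.

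Among partner genes of the family, interferon-stimulated genes and identity markers, edgeR called none in any of 8 lists. The lists were arrestin-fold relatives, NEDD4-family ligases with ESCRT partners, transcription regulators of TXNIP and the ARRDC genes, the thioredoxin system, receptor kinases with the clathrin adaptor, receptors and transporters routed by arrestins, interferon-stimulated genes and cell identity markers. Beside the called shares of all genes given above, DESeq2 called 2 of their genes lower and 9 higher, and edgeR with the offsets 0 lower and 4 higher. Of these calls, the identity markers, with 8 genes tested, held 3 of the higher ones by DESeq2 and 1 with the offsets. The interferon-stimulated genes, with 11 tested, held 1 of the lower ones by DESeq2. For the other lists the numbers tested are given below. All these numbers are for edgeR. DESeq2 gave no adjusted p to some of the genes, such as CDH1, OAS1 and IFI6, so its own numbers are smaller in several lists. The median log2 fold change over all genes tested was 0.01, and 0.09 with the offsets. Genes with the most counts in their list are named, and the genes called by DESeq2 or with the offsets are named because of their values.

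The ubiquitin ligases and the ESCRT machinery, through which alpha-arrestins act, had 13 genes tested and a median of -0.06, or 0.18 with the offsets. SMURF2, a ligase, was at -0.30 (SE 0.198), and PDCD6IP, the ESCRT adaptor ALIX, at -0.24 (SE 0.204). HECW2, a NEDD4-family ligase with 112 and 75 counts in WT and 132 and 49 in KD, was called higher by DESeq2 and with the offsets, at 1.15 (SE 0.223) and 1.43 (SE 0.183). WWP1, a ligase known to bind ARRDC proteins, was called higher with the offsets alone, at 0.59 (SE 0.129), against 0.04 without them. The other relatives with an arrestin fold had 3 of 7 genes tested, with a median of -0.08. Of these VPS26A, a retromer subunit, was at -0.44 (SE 0.280) and RGP1, a partner of RIC1 in Golgi trafficking, at 0.03 (SE 0.183). ARRDC5, SAG and ARR3 were at 0 counts in all libraries.

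The regulators of TXNIP and the ARRDC genes had all 6 tested, with a median of -0.23. MLXIP, which encodes the glucose-sensing factor MondoA that acts on TXNIP and ARRDC4, had 584 and 571 counts in WT and 596 and 298 in KD. It was called higher by DESeq2 and with the offsets, with log2 fold changes of 0.89 (SE 0.207) and 0.60 (SE 0.122). MLX, its partner, was at 0.25 (SE 0.181). NR3C1, the glucocorticoid receptor, was at -0.41 (SE 0.216), or -0.10 with the offsets. In the thioredoxin system, with which TXNIP interacts, 6 of 8 genes were tested, with a median of 0.17. TXNRD1, a thioredoxin reductase, had 6500 and 5360 counts in WT and 2350 and 849 in KD and was called lower by DESeq2, at -0.72 (SE 0.174) in edgeR. PRDX1, a peroxiredoxin, was at 0.46 (SE 0.173), and neither was called with the offsets.

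The kinases and coat proteins that work with beta-arrestins had 11 genes tested, and all 11 log2 fold changes were above 0, with a median of 0.50, or 0.38 with the offsets. The median exon GC of this list was 54.0%, and genes of such GC content had a median of 0.29. CLTC, the clathrin heavy chain, was at 0.02 (SE 0.186) and AP2B1, an adaptor subunit that binds beta-arrestin, at 0.22 (SE 0.173). CLTB, a clathrin light chain, and AP2A1, another adaptor subunit, were called higher by DESeq2, at 0.80 (SE 0.220) and 0.96 (SE 0.290) in edgeR, and neither was called with the offsets.

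Among the receptors and transporters that arrestins route, 7 of 9 genes were tested, with a median of 0.09. SLC2A1, the glucose transporter that TXNIP restrains, was at 0.49 (SE 0.227) and ITGB4, the integrin beta 4 that ARRDC3 directs to lysosomes, at 0.80 (SE 0.251), or 0.38 (SE 0.126) with the offsets. ITGB4 and the receptor NOTCH1 (0.99, SE 0.340) were called higher by DESeq2, and neither was called with the offsets. Of the interferon-stimulated genes, which an siRNA can raise through RNA sensors, 8 of 11 tested had log2 fold changes below 0 and the median was -0.19, or -0.02 with the offsets. IFIT3 was at -0.19 (SE 0.173), while IFIT2 was called lower by DESeq2, at -0.81 (SE 0.197). Of the identity markers, VIM was at 0.68 (SE 0.251), CD44 at 0.05 (SE 0.171), KRT18 at 0.87 (SE 0.247) and KRT8 at 1.08 (SE 0.252). DESeq2 called VIM, KRT8 and KRT18 higher, and with the offsets only KRT8 was called.

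**Figure D5:**
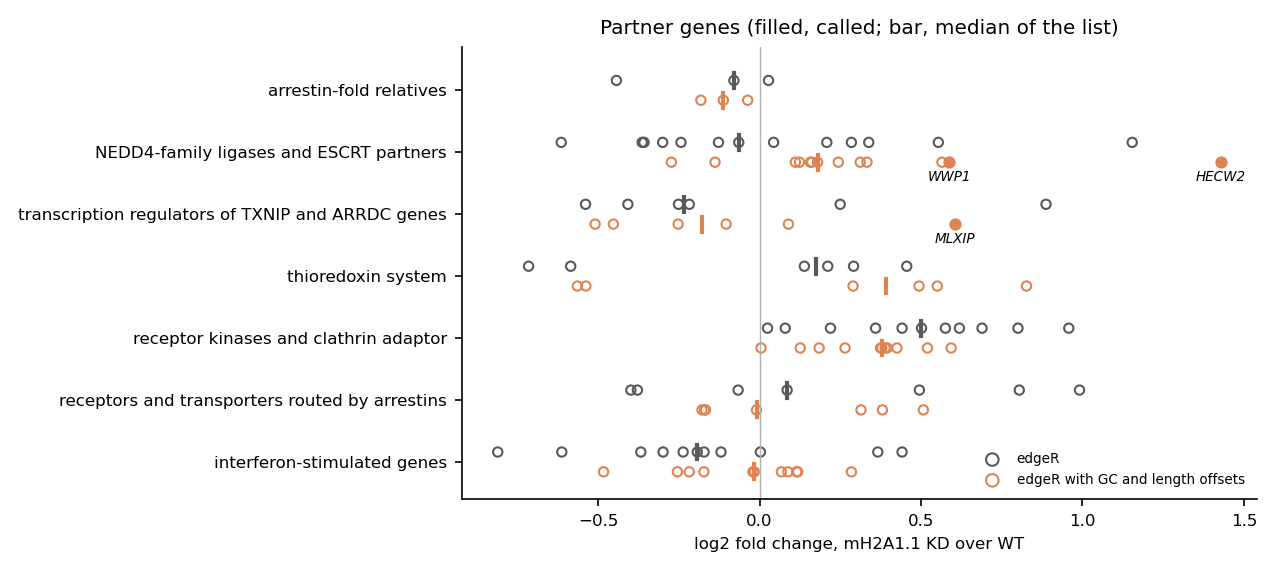
Log2 fold change, mH2A1.1 KD over WT, of each tested gene in 7 lists of partner and control genes, from edgeR (grey) and edgeR with GC and length offsets (orange), with bars at the medians. Filled points mark the genes called, which are HECW2, WWP1 and MLXIP with the offsets and none without, and all 11 receptor kinases and clathrin adaptor genes lie right of 0.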

How the data were processed

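Gene counts of 4 RNA-seq libraries (2 WT, 2 KD) and 2 ChIP-seq peak lists were used. The input and the 4 promoter capture Hi-C samples were not analysed here. The authors aligned reads to GRCh38 with STAR 2.5.1 (version per the submitters' processing notes), discarded duplicates and reads of low mapping quality and deposited raw gene counts from HTSeq, whose annotation is not given in the sources used here. Genes with dense coverage can lose distinct molecules when duplicates are discarded without molecular identifiers. Peaks are positions in base pairs that the authors called against input with normR on 1 library per antibody, in bins of 3000 bp.

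Of 23167 identifiers, 23061 matched GENCODE release 44, from which exon length and GC were taken, and 106 did not. The test was edgeR 4.0.16 (R 4.3.3, TMM, filter on low counts, quasi-likelihood test, two-sided, Benjamini-Hochberg adjustment over all genes tested) without chromosomes 21, 22 and X, where KD replicate 2 had 0 or nearly 0 counts. Genes past 1.5-fold with an adjusted p below 0.1 were called. DESeq2 1.42.0 was an alternative, as were other normalizations, filters, chromosomes, depths, a replicate block and lowess offsets (span 0.3) over GC and length. Leaving out a KD or WT library leaves a lone sample that is assumed to vary like the other group. The test was checked on simulated data with 200 changed genes and a biological coefficient of variation of 0.166, the estimate from these libraries. There edgeR recovered 59.2% of log2 changes of 1 and 97% of those of 2. The simulated counts had no GC trend, unlike KD replicate 2. These shares therefore do not give the power of the test on the real libraries, where it called 0 of 10963 genes. Total counts per library ranged from 2309549 to 9794674. Promoter sequences are from RefSeq. Figures were drawn with matplotlib 3.10.9 in Python 3.11.15.

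The members, lists and tests were chosen with earlier results of these data known. The genes named are the members, MACROH2A1, the 2 genes with the most counts in each list, the 5 genes most like ARRDC3 and genes that overlap a member. Other list genes are named because of their values, and 1 gene that the rule names is not reported here.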

Additional observations from a re-analysis of the deposited data

How the results depend on the processing

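ARRDC3 was lower and ARRDC1, TXNIP and ARRB2 were higher in KD under every alternative. The direction of the other 3 members was not stable. With the GC and length offsets, the log2 fold change of ARRDC2 was -0.13, and -0.13 with the replicate block as well, -0.15 with DESeq2, -0.18 with all chromosomes, -0.20 and -0.087 without WT replicates 1 and 2 and -0.29 and -0.026 without KD replicates 1 and 2. In the same order, that of ARRDC4 was 0.092, 0.15, 0.089 and 0.066, with -0.086 and 0.28 without WT replicates 1 and 2 and 0.20 and 0.052 without KD replicates 1 and 2, and its values without offsets ran from -0.34 to 0.0012 when 1 library was left out. That of ARRB1 was -0.072, -0.065, -0.076 and -0.099, with -0.083 and -0.051 without WT replicates 1 and 2 and 0.10 and -0.21 without KD replicates 1 and 2, and its values without offsets ran from -0.10 to 0.42. The cause was not tested.

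Over all genes edgeR called 0 lower and 0 higher, also with all chromosomes, RLE or upper quartile factors, and with offsets and all chromosomes. DESeq2 called 445 lower and 429 higher (535 and 410 with all chromosomes), edgeR without a filter on low counts 1115 and 1024, with the offsets 151 and 186, with offsets in DESeq2 128 and 349, and after thinning to the shallowest library 55 and 19. Leaving out 1 library gave 2 to 2424 lower and 0 to 2320 higher calls, with the highest numbers without KD replicate 1 and 600 lower and 309 higher without KD replicate 2, and with the offsets 60 and 128 without WT replicate 1, 90 and 192 without WT replicate 2, 514 and 1563 without KD replicate 1 and 379 and 257 without KD replicate 2. Of the members, 1 was called lower (ARRDC3) under DESeq2 on either set of chromosomes, no filter, thinning and each fit with offsets on all 4 libraries except that with all chromosomes, and 1 higher under the same alternatives except thinning, which was ARRDC1 without offsets and TXNIP with them. Leaving out 1 library gave 0 to 1 lower and 0 to 2 higher, with or without offsets. ARRDC3 was not called without WT replicate 1 or 2. Among the lists, lower calls were 2 with DESeq2 (also with all chromosomes), 4 without the filter and 0 to 9 leaving out 1 library (0 to 2 with offsets). Higher calls were 9 with DESeq2 (8 with all chromosomes), 11 without the filter, 4 with offsets, 5 with offsets in DESeq2 and 0 to 16 leaving out 1 library (1 to 14 with offsets). An mH2A1.1 peak at the start was found for 6 members, also with a window of 3000 bp or any annotated transcript start. It was found for 4 when only peaks overlapping the other antibody's peaks, or wider than 1 bin, were kept. Those left out were ARRDC3 and ARRDC4. The paper kept the peaks common to both antibodies for its analyses. Anywhere in the gene, 7 members had an mH2A1.1 peak. For total mH2A1 the count was 3, and 4 with ARRDC2 under the wider window, any transcript start or the whole gene.

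The labels number the replicates 1 and 2 in each group, but do not say that same-numbered libraries were paired. The deviations of same-numbered libraries correlated at 0.252 over 10963 genes with 2 pairs. Replicates differed along exon GC in both groups. The median log2 of WT replicate 1 over 2 ran from 0.11 in the lowest GC group to -0.09 in the highest. The correlation therefore cannot decide whether the libraries were paired. The replicate block gave 1137 lower and 1071 higher calls, or 297 and 647 with the offsets, including ARRDC3 lower in both and 1 member higher (ARRDC1, and TXNIP with the offsets), and 4 lower and 9 higher calls in the lists, or 0 and 6 with the offsets. The offsets on all chromosomes and with a library left out were chosen after seeing the data. ARRDC4, ARRDC2 and ARRB2 had the fewest counts of the members in KD replicate 2, with 14, 38 and 42.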
